A study of Mus musculus with 4 samples.

Results

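Nuclear oxidative phosphorylation genes were examined in a single list of open chromatin regions from mouse submandibular salivary gland organoids (mSGOs). The members were all protein-coding nuclear genes in the RefSeq table of GRCm38 with symbols starting Nduf, Sdha to Sdhd, Uqcr, Cox4 to Cox8 or Atp5. They numbered 100 of 21887 protein-coding genes. They comprised 47 genes of complex I, 8 of complex II, 8 of complex III, 20 of complex IV and 17 of complex V. Assembly factors were among them for complex I (8 genes) and complex II (4 genes) only. Ndufa4 and Ndufa4l2 were counted with complex IV, where their products are now placed. For 99 members, all but Atp5mpl, a strand was known, so that the 5′ end could be fixed.

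The list was made from bulk ATAC-seq, in which a transposase cuts and tags accessible DNA. The series holds 4 samples of non-irradiated C57BL/6 organoids, 2 of passage 1 and 2 of passage 2. At each passage, 1 sample came from a 12-week-old and 1 from a 3-month-old mouse. All cultures were grown from dissociated gland cells in Matrigel, with Wnt3a- and R-spondin1-conditioned medium, FGF2, EGF, dexamethasone, insulin, N2 supplement and the kinase inhibitor Y27632, and the study describes them as 7-day organoids. The list names no sample and was taken as pooled over all 4, although the sources used here do not state which samples entered it. It holds no value for any one sample, so passages and ages could not be compared, depth per sample is unknown and no value has a replicate error. Every comparison here is therefore a description without a test. The list held 32011 distinct regions, a number that differs from the one given by the study for its consensus peaks, so the list may not be that file. An absent region means only that none is in this list.

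Oxidative phosphorylation is the production of ATP by the inner mitochondrial membrane. Complexes I and II feed electrons from NADH and succinate to ubiquinone, complex III passes them to cytochrome c and complex IV to oxygen, and complexes I, III and IV pump protons that complex V, the ATP synthase, uses to make ATP. Complex II is encoded wholly in the nucleus, and the other complexes also carry subunits encoded in the mitochondrial genome, which were not analysed here. Several complex IV subunits exist as isoforms, with forms made in most tissues and counterparts known from heart and skeletal muscle (Cox6a2, Cox7a1, Cox8b), lung and hypoxic cells (Cox4i2), hypoxic cells (Ndufa4l2) or testis (Cox6b2, Cox7b2, Cox8c). Promoters of the ubiquitous genes are often CpG-rich and are known targets of nuclear respiratory factor 1 (NRF1), of the ETS factor GABP and of YY1.

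The DNA just before the start sites shows how isoform pairs differed in sequence. The 250 bases before the start listed by RefSeq (GRCm38.p6) are printed for the isoforms and partners with an entry in the promoter table and for Cox7c, the member with the highest fold. Each is written 5′ to 3′ on the strand of its gene, in lower case, with capitals for matches on either strand to 7 motifs. These were NRF1 (GCGCA followed after any base by GCGC), ETS/GABP (CCGGAAG), YY1 (AAGATGG), NF-Y (CCAAT), SP/KLF (GGGCGG), the TATA box (TATAAA) and ZNF143/THAP11 (ACTACA followed after any base by TTCCC). Cox4i1, Cox4i2, Cox6a2, Cox8c and Ndufa4l2 had no entry in the table.

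Cox7c, a ubiquitous complex IV subunit, lies on the minus strand, and 186 of the 250 bases (chr13:86046796-86047045) fell inside its open region. Its capitals mark the ZNF143/THAP11 match.
Cox7c: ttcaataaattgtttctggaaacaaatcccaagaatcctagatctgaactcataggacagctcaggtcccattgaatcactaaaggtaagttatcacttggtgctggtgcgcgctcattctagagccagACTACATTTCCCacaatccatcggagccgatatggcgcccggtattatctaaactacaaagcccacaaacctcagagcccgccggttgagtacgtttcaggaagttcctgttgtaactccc

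The Cox6a1 stretch (chr5:115348959-115349208, minus strand) lay wholly inside an open region. Its capitals mark, in order, an NRF1 match, an SP/KLF match, a second NRF1 match, NF-Y, SP/KLF and ETS/GABP.
Cox6a1: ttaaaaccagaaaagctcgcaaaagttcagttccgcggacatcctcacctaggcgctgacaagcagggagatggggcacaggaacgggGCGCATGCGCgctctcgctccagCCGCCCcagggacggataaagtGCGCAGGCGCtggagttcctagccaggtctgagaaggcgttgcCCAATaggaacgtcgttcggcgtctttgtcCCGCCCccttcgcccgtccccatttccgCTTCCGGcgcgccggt

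For the Cox6b pair, all 250 bases of Cox6b1 (chr7:30626115-30626364, minus strand) and none of those of the testis isoform Cox6b2 (chr7:4753095-4753344, minus strand) lay in an open region. Capitals mark NF-Y matches in both, with an ETS/GABP match in Cox6b1 and an SP/KLF match in Cox6b2.
Cox6b1: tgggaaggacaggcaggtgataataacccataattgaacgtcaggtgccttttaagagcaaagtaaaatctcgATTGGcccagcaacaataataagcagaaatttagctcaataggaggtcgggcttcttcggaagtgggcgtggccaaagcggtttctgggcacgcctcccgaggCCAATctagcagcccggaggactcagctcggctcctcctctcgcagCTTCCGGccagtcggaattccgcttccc
Cox6b2: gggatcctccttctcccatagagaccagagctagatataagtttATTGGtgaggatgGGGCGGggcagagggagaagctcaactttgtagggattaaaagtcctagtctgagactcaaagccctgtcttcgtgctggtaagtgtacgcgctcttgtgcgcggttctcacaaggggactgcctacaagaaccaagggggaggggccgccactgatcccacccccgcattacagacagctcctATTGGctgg

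For the Cox7a pair, 161 bases of Cox7a2 (chr9:79759854-79760103, minus strand) and none of the muscle isoform Cox7a1 (chr7:30183921-30184170, plus strand) lay in an open region. The capitals mark an SP/KLF match in Cox7a2 and NF-Y matches in Cox7a1.
Cox7a2: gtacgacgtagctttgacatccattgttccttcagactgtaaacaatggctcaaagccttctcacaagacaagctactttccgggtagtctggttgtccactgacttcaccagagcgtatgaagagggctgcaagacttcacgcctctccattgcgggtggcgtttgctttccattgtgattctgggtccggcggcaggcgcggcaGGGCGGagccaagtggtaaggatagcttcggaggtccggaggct
Cox7a1: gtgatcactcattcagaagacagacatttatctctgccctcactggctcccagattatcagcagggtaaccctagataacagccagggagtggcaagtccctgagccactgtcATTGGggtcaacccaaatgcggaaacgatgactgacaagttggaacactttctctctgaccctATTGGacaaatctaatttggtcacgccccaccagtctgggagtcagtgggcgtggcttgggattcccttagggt

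In the Cox7b pair neither stretch lay in an open region, in Cox7b (chrX:106015450-106015699, plus strand) or in the testis isoform Cox7b2 (chr5:71548206-71548455, minus strand). The capitals mark NF-Y and ZNF143/THAP11 matches in Cox7b, and TATA, NF-Y and SP/KLF matches in Cox7b2.
Cox7b: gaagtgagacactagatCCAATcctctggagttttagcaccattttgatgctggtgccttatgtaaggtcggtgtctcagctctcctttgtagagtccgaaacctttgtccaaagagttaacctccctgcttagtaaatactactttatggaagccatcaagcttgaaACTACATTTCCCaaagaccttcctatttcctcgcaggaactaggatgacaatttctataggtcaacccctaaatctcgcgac
Cox7b2: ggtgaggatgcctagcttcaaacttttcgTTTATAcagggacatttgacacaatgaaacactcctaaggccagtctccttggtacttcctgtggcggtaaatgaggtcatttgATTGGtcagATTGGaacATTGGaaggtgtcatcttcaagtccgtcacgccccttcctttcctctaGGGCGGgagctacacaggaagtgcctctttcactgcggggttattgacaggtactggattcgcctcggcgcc

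For the Cox8 pair, all 250 bases of Cox8a (chr19:7217617-7217866, minus strand) and none of the muscle isoform Cox8b (chr7:140900447-140900696, minus strand) lay in an open region. Capitals mark an NF-Y match in Cox8a, and none of the motifs matched in this stretch of Cox8b.
Cox8a: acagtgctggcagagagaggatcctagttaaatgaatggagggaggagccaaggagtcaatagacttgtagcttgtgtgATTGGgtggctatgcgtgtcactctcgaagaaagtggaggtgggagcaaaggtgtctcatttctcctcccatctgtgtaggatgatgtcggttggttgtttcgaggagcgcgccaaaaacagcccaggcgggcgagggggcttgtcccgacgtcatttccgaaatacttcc
Cox8b: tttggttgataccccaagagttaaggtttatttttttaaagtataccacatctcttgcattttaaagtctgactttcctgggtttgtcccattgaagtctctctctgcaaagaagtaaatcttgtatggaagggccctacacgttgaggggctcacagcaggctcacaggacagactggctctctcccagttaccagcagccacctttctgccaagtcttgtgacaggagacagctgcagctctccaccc

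Of the Ndufa4 stretch (chr6:11907451-11907700, minus strand), 170 bases lay in open regions, and it held none of the motifs, so it has no capitals.
Ndufa4: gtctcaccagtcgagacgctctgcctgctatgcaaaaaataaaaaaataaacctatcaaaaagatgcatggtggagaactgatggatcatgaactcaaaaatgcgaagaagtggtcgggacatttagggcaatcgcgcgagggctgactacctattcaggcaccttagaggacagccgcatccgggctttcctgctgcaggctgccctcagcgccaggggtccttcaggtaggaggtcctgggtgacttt

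The first question was how many members had open chromatin at their start. A region counted when its midpoint lay within 1 kb of the outermost 5′ end of the gene. By this measure 75 of 99 members (75.8%) had a region, beside 38.3% of all 21468 protein-coding genes with a known strand. Without the 8 tissue-specific isoforms and 2 short copies of Ndufb4, the count was 75 of 89 (84.3%). The outermost end is not always the main start, so the starts listed by RefSeq were also used, with the outermost end kept for the genes without an entry in the promoter table. By this count 78 members (78.8%) had a region, beside 41% of all coding genes. Among genes with an entry alone, 68 of 82 members (82.9%) had a region at the first listed start, beside 40.6% of 17492 coding genes. For comparison with other widely used genes, 71 of 90 cytosolic ribosomal protein genes (78.9%) and 29 of 40 proteasome subunit genes (72.5%) had a region at the outermost end.

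**Figure D1:**
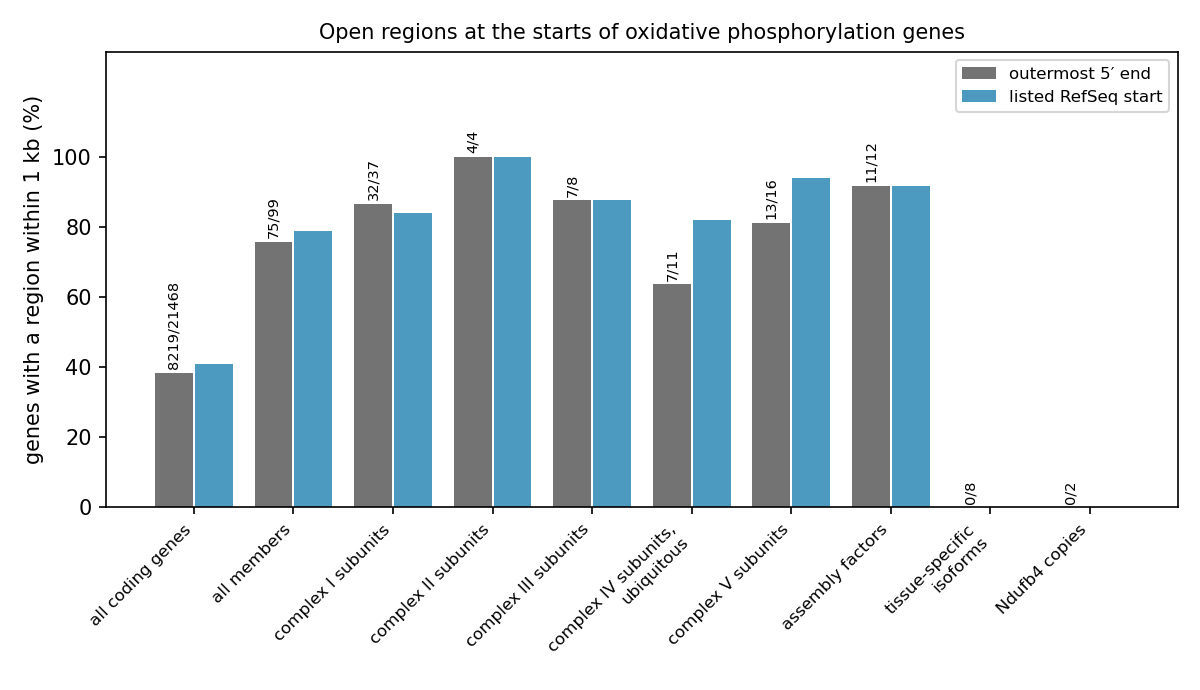
Percentage of genes with an open region within 1 kb, by complex and class, with grey bars for the outermost 5′ end and blue bars for the starts listed by RefSeq (the outermost end where none is listed). Numbers above the grey bars are genes with a region over genes in the group, and the tissue-specific isoforms had 0 of 8 while the assembly factors had 11 of 12.

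In complex I, the NADH dehydrogenase, 32 of 37 structural subunits (86.5%) had a region at the start, and so did 26 of the 30 accessory subunits. All 3 core subunits of the electron input module had one, with a fold of 12.2 at Ndufv2, 11.8 at Ndufv1 and 6.89 at Ndufs1. The fold is the authors' ratio of signal to local background at the strongest summit of a region, and it can be ranked within the list but carries no error. In the module that reduces ubiquinone, Ndufs8 had a fold of 10.8, Ndufs3 of 7.61 and Ndufs7 of 5.21. The accessory subunits without a region were Ndufa1, Ndufb7, Ndufb10 and Ndufs4.

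All 4 subunits of complex II, succinate dehydrogenase, had a region at the start. The membrane anchors Sdhc and Sdhd had folds of 9.66 and 8.64, and the iron-sulfur subunit Sdhb 8.31. The flavoprotein Sdha, which oxidises succinate, had the lowest fold of the complex, 5.89. The complex II assembly factors were also complete, and Sdhaf3 had the highest fold, 13.4.

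In complex III, the cytochrome bc1 complex, 7 of 8 subunits among the members (87.5%) had a region. The cytochrome c1 gene Cyc1 has a symbol outside the rule and is given below with other genes of the pathway. The core protein Uqcrc2 had a fold of 13.0, the core protein Uqcrc1 11.6 and Uqcrfs1, the Rieske iron-sulfur protein, 8.66. The lowest was at the small subunit Uqcr10, 6.47, and Uqcr11 had no region within 1 kb.

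Complex IV, cytochrome c oxidase, was the least complete, with 8 of 20 members (40%). The 8 were 7 of 11 ubiquitous subunits (63.6%) and Cox7a2l, which helps join complexes III and IV into supercomplexes and had a fold of 10.7. At the listed starts the ubiquitous count was 9 of 11 (81.8%), since Cox5a and Cox7a2 were added. Cox7b had no region by either definition, and Cox6c, which has no listed start in the table, had none at its outermost end.

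In complex V, 13 of 16 subunits with a known strand (81.2%) had a region, and 15 (93.8%) at the listed starts, where Atp5d and Atp5g3 were added. Atp5d, a subunit of the central stalk, has its listed start 3577 bp inside the outermost end, with a region of fold 7.65 there. The proton-carrying c ring is encoded by Atp5g1, Atp5g2 and Atp5g3, which make the same mature subunit, and their folds were 13.2, 9.15 and, for Atp5g3 at the listed start, 5.72. Atp5l, a small membrane subunit, had no region by either definition. For Atp5mpl, whose strand was unknown, a region of fold 6.21 (chr12:111966736-111967191) lay 45 bp from one end of the gene and 5590 bp from the other.

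Assembly factors help to build the complexes but are not in the finished enzymes. The 12 such members all belong to complexes I and II. Of these, 11 (91.7%) had a region, beside 63 of 76 structural subunits (82.9%). The factor without one was Ndufaf1, which works on the membrane part of complex I. The highest folds among those of complex I were 15.7 at Ndufaf2 and 14.4 at Ndufaf7, and Ndufaf3, at 4.96, had the lowest fold of all members.

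The next question was how strong the regions at these starts were. The members' median fold was 9.19 (quartiles 7.66 to 12.0, range 4.96 to 21.0), and that of all 8219 protein-coding genes with a region was 8.41 (quartiles 6.46 to 11.1). Of the 75 members, 47 (62.7%) were above the median of all genes and 26 (34.7%) above its upper quartile. The median of ribosomal protein genes was 8.51 and that of proteasome genes 8.68. By complex, the medians were 8.34 for complex I, 8.91 for complex II, 10.9 for complex III, 9.68 for complex IV and 11.6 for complex V.

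**Figure D2:**
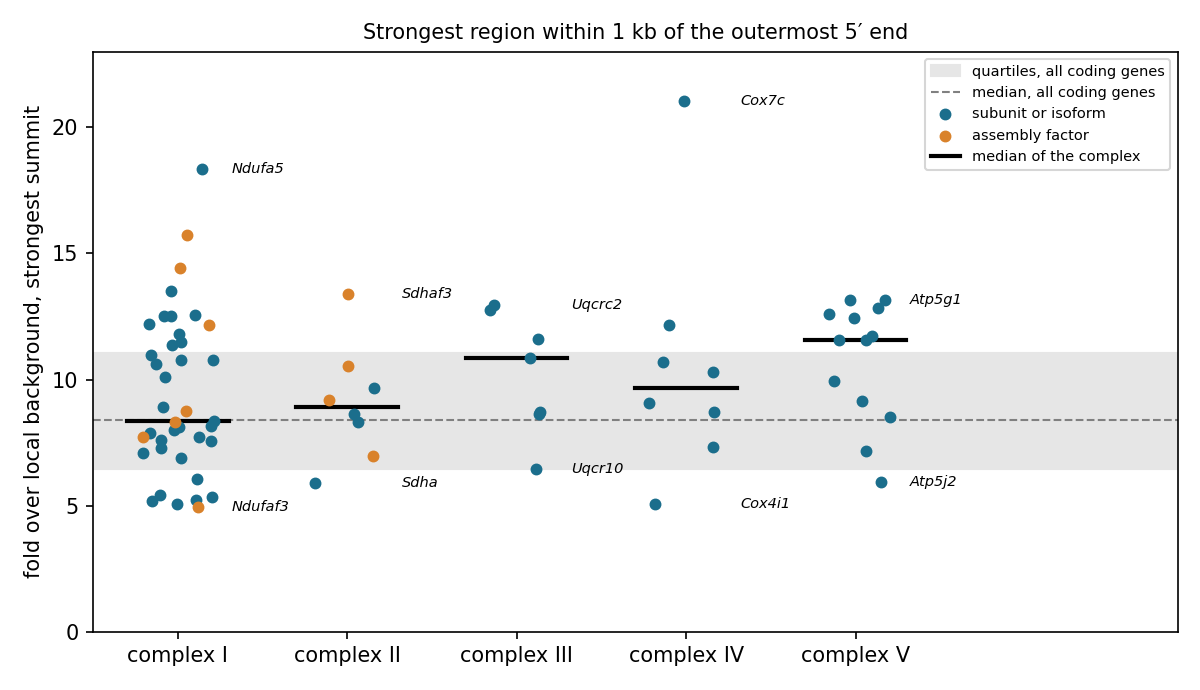
Fold over local background at the strongest summit of the region at each member's outermost 5′ end, by complex, with blue points for subunits and isoforms, orange points for assembly factors and black bars for the median of each complex. The grey band and dashed line are the quartiles and median of all protein-coding genes with a region, and Cox7c stands highest at 21.0.

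Within complex V the catalytic F1 head and central stalk had a median of 12.5 over 4 genes. It held Atp5e at 13.1, the catalytic subunit Atp5b at 12.6, Atp5c1 at 12.5 and Atp5a1 at 8.51. The peripheral stalk, which holds the head still, had a median of 11.7 and ranged from 12.8 at Atp5pb to 7.17 at Atp5h. The lowest fold of the complex at an outermost end was at Atp5j2, a small membrane subunit, 5.96.

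Cox7c had the highest fold of all members, 21.0 (chr13:86046484-86046981), which was at percentile 99.7 among coding genes with a region. Ndufa5, an accessory subunit of complex I, followed at 18.3 (chr6:24527429-24527952). At the other end of complex IV stood Cox4i1, the ubiquitous form of the largest nuclear subunit, with a fold of 5.05.

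Other readouts of the regions were also set beside those of all genes. The IDR score measures how reproducibly a region ranked between the sets of reads that the authors' pipeline compared, with a ceiling of 1000, and 54 of 75 members' regions (72.0%) reached the ceiling, beside 62.7% of all genes' regions. Members' regions had a median −log10 q of 44.2, beside 37.4. They were narrower, with a median width of 422 bp against 480 bp, and 54 (72.0%) had several summits, beside 78.3%. The midpoint lay within 200 bp of the outermost end in 66 of 75 members (88.0%), beside 74.2%, and upstream of it in 56 (74.7%), beside 52.3%. The median midpoint was at −50 bp for members and −8 bp for all genes.

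The 1 kb limit divided few members. Just inside it were Ndufa13 at −750 bp (fold 7.57), Ndufa11 at −711 bp (fold 8.17) and Atp5j at 889 bp (fold 11.7), and just outside it was Atp5g3 at 1077 bp. Ndufa13 no longer counted at its listed start, whereas the region of Atp5j lay 8 bp from a listed start of that gene.

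**Figure D3:**
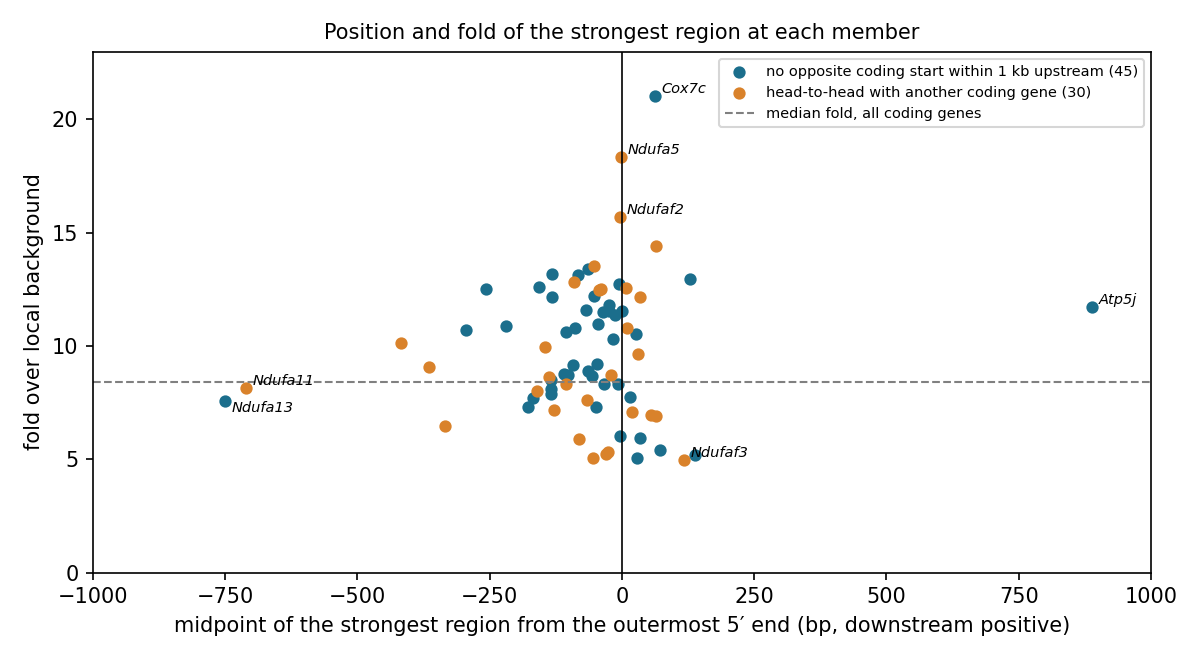
Midpoint of the strongest region from the outermost 5′ end in bp (horizontal, downstream positive) against fold over local background (vertical) for the 75 members with a region, in orange where another coding gene starts on the opposite strand within 1 kb upstream (30) and in blue where none does (45). Most points lie close to 0, and the dashed line is the median fold of all coding genes, 8.41.

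The tissue-specific isoforms were then set beside their ubiquitous partners. None of the 8 tissue-specific isoforms had a region at the outermost end, and none of the 4 with an entry in the promoter table had one at the listed start. The shares of coding genes were 38.3% and 40.6%. Cox4i2, Cox6a2, Cox8c and Ndufa4l2 had no entry, so a start inside the gene was not examined for them. Of the 7 ubiquitous partners, 5 (71.4%) had a region at the outermost end, and Cox7a2 also had one at its listed start. Cox6a1 had a fold of 7.31 (chr5:115348878-115349391, midpoint −177 bp), and the nearest region to its muscle form Cox6a2 lay 32153 bp upstream. Cox8a had a fold of 12.2 (chr19:7217511-7217984, midpoint −132 bp), and the nearest regions to the muscle form Cox8b and the testis form Cox8c lay 18393 bp downstream, at the shared start of Psmd13 and Sirt3, and 20799 bp upstream, at the start of Btbd7.

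Cox6b1 had a fold of 8.71 (chr7:30626043-30626389, midpoint −102 bp), whereas the region nearest to the testis form Cox6b2 lay 13187 bp downstream at the start of Kmt5c. Cox4i1 had its region at −54 bp (chr8:120667983-120668359), shared with the start of Emc8, and the region nearest to Cox4i2 lay 12170 bp upstream and at no coding start. Cox7a2 had no region at its outermost end, but a region of fold 12.6 (chr9:79759491-79760014) lay at its listed start, 11569 bp inside the gene. The nearest region to its muscle form Cox7a1 was 10927 bp downstream, beyond the 3′ end of the gene.

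Cox7b was the exception among the partners. Its nearest region was 3814 bp upstream at the start of Magt1, and no region was called at the Cox7b start, while the nearest region to its testis form Cox7b2 was 591221 bp away. For the Ndufa4 pair, Ndufa4 had regions at −365 bp (fold 9.07) and 194 bp (fold 7.76), both shared with the start of Phf14. The hypoxia-linked Ndufa4l2 had a region of fold 5.22 inside the gene, 3720 bp from its 5′ end.

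**Figure D4:**
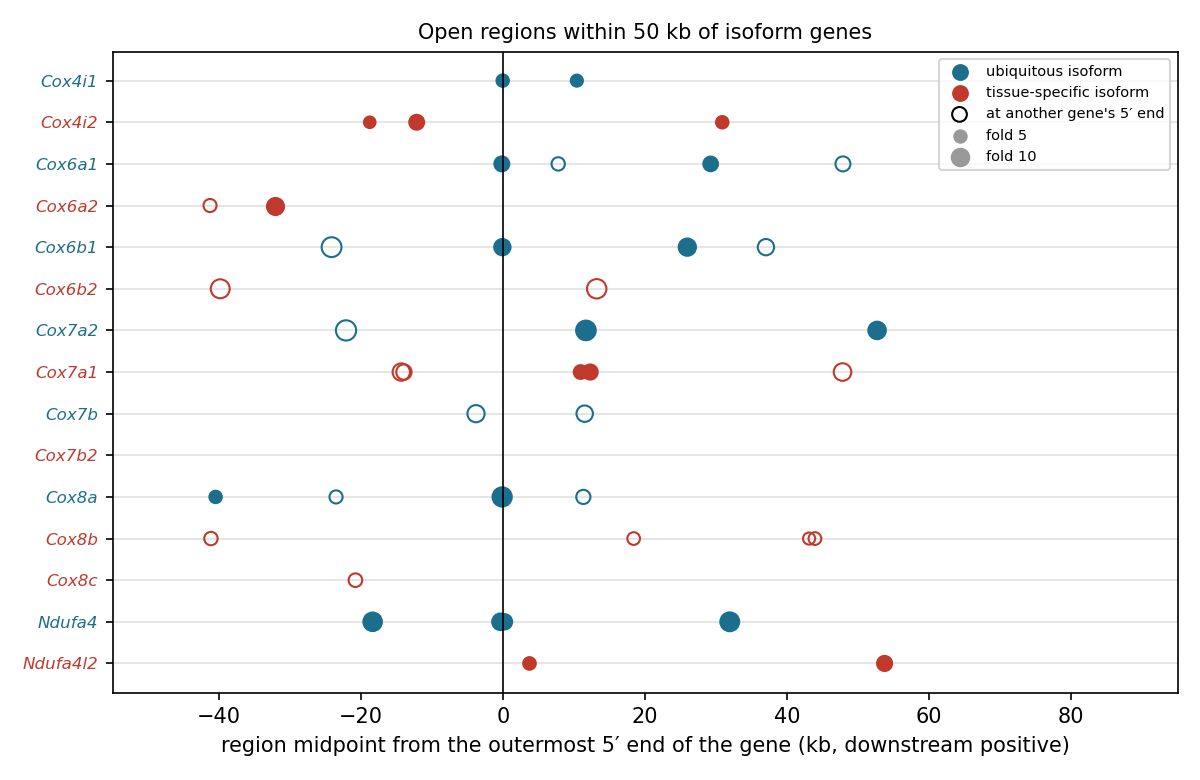
Midpoints of open regions within 50 kb of each isoform gene, in kb from its outermost 5′ end (downstream positive). Ubiquitous forms are blue, tissue-specific forms red, and point area is in proportion to fold. Open circles mark regions at the 5′ end of another coding gene only. Regions at a gene's own outermost end are filled, also where shared with another coding gene, as for Cox4i1 and Ndufa4. No tissue-specific form has a point at 0, and Cox7b2 has none at all.

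Marker genes of the tissues in which these isoforms are known were checked in the same list. Of 12 epithelial markers 10 had a region at the start, with folds from 2.95 at Krt5 to 10.7 at Itgb1, and Krt7 and Trp63 had none. Of 7 muscle markers, among them Ckm and Myh7, 0 had one, as did 0 of 4 testis markers, 0 of 3 endothelial and 1 of 3 immune markers (Cd68, fold 4.58). The share over all coding genes was 38.3%, and lists this short do not show which cells were absent. The part of cell composition in the absence of regions at the tissue-specific isoforms was not tested.

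Of the 24 members without a region at the outermost end, 8 were tissue-specific isoforms and 2 were the copies Ndufb4b and Ndufb4c, genes of 471 and 485 bp. Sharing of reads between these copies and Ndufb4 was not tested. The other 14 were Ndufaf1 and 13 structural subunits. The nearest region lay within 5 kb for 8 of the 24 and more than 10 kb away for 15. Among the structural subunits it was 80817 bp away at Ndufa1, 27744 bp at Ndufb7, 4422 bp at Ndufb10, 59299 bp at Ndufs4, 7124 bp at Uqcr11, 91221 bp at Cox6c and 15599 bp at Atp5l. Cox6c had no entry among the promoters, so a start inside the gene was not examined for it. Ndufa1 and Cox7b lie on the X chromosome, and Ndufb11, also X-linked, had a region of fold 7.71.

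Many members share their start with a neighbour. Another protein-coding gene started on the opposite strand within 1 kb upstream of 30 of 99 members (30.3%), beside 6.9% of all coding genes. All 30 had a region, and so did 84.4% of all head-to-head genes. Without such a neighbour, 45 of 69 members (65.2%) had a region, beside 34.9% of all coding genes. The median fold was 8.68 at the head-to-head members and 10.5 at the others, whereas among all genes it was 9.27 and 8.24, so the order was the opposite of that in the whole set.

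Some neighbours also serve the mitochondrion or protein synthesis. Ndufb5 (fold 13.5) lies head-to-head with Mrpl47 and Ndufs6 (fold 5.33) with Mrpl36, which encode mitochondrial ribosomal proteins. Sdhd lies head-to-head with Timm8b, which encodes a chaperone of mitochondrial import. Ndufa7 (fold 10.8) has the ribosomal protein gene Rps28 as its neighbour, and Ndufs1 the elongation factor gene Eef1b2. The region counted for Atp5j lay at the start of Gabpa, which encodes the DNA-binding subunit of GABP. Its midpoint was also 8 bp from a listed start of Atp5j. In all, 34 of the 75 members' regions (45.3%) were also within 1 kb of the 5′ end of another coding gene, beside 23.2% of all genes' regions, and the signal of such a region cannot be assigned to either gene.

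Regions farther out were counted within 50 kb of each gene, leaving out those within 1 kb of its own outermost 5′ end. Of 99 members 86 (86.9%) had at least 1 such region, beside 75% of all coding genes, and the median was 2 in each. Of the 260 regions counted for members, 125 (48.1%) lay at the 5′ end of another coding gene, beside 32.5% over all genes. A region inside the gene, more than 1 kb from its outermost 5′ end, was present in 13 members (13.1%), beside 25.6%. Of the 13, Cox5a, Cox7a2, Atp5d and Atp5g3 had only the region at their own listed start there. Members were shorter than all coding genes, with a median length of 7394 bp against 17536 bp. Atp5d had 8 such regions, of which 2 were at other starts and 1 inside the gene at its own listed start. Atp5j2 had 7, of which 6 were at other starts. Of the 8 tissue-specific isoforms, 7 had another region within 50 kb, 19 in all, of which 11 were at other genes' starts.

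Motifs were counted in windows from 250 bases before to 50 after the listed start, which the promoter table held for 82 members, 68 with a region and 14 without. The same motifs were counted in all 32851 promoter windows of the table and in those of 7106 protein-coding genes with a region. NRF1 matched in 20 of 68 members with a region (29.4%), beside 12.3% of coding genes with a region and 4.6% of all promoters. It matched in 0 of the 14 members without a region, which is near the 2.67% of coding genes without a region. The 20 members with a match comprised 9 of 34 windows of complex I, 4 of 7 of complex II, 1 of 4 of complex III, 1 of 9 of complex IV and 5 of 14 of complex V. Ndufb4 and Sdha had 3 matches each, and Cox6a1, printed above, and Uqcrc1 had 2 each. A match describes these letters only and says nothing of binding.

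ETS/GABP matched in 17 members with a region (25%), beside 21.6% of coding genes with a region and 8.86% of all promoters. It matched in 4 of the 14 members without a region, beside 5.27% of coding genes without a region. YY1 matched in 10 (14.7%), beside 7.88% and 6.34%. NF-Y matched in 28 (41.2%), beside 43.3% and 37.4%. SP/KLF matched in 34 members (50%), a smaller share than the 69.4% of coding genes with a region, while 35.7% of all promoters held it. TATA matched in 5 (7.35%), beside 6.42% and 13.6%, and in 4 of the 14 members without a region, beside 18.1% of coding genes without a region. Only Ndufs3 among members had matches of different motifs that overlapped.

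The ZNF143/THAP11 letters were searched after the Cox7c sequence had been read, so their presence there is no result. They were in 0.947% of all promoters and 2.96% of coding genes with a region. The other members with a match were Atp5d, Uqcr10 and Cox7b, the last without a region.

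**Figure D5:**
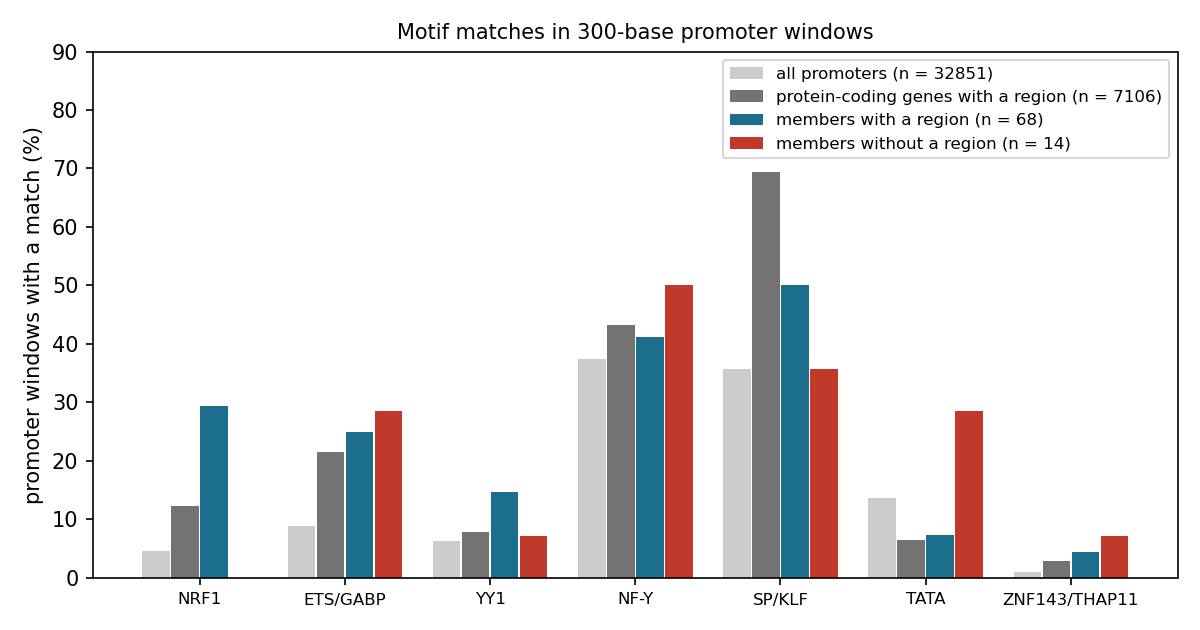
Percentage of 300-base promoter windows with at least 1 motif match, in light grey for all promoters, dark grey for protein-coding genes with a region, blue for 68 members with a region and red for 14 members without. NRF1 matched in 29.4% of the members with a region and in 0 of those without. Of coding genes without a region, not drawn here, 2.67% had a match.

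The median fold of members with a region was lower with a match than without for 5 of the 7 motifs. These include ZNF143/THAP11, which was searched only after the Cox7c sequence had been read. The median was 8.70 with an NRF1 match (20 members) and 10.0 without, and 8.72 with ETS/GABP (17) and 10.1 without. It was 6.68 with YY1 (10) and 10.0 without, and 8.51 with NF-Y (28) and 10.6 without. With ZNF143/THAP11 (3) it was 7.65 and without 9.19. It was 10.6 with SP/KLF (34) and 8.71 without, and 10.8 with the TATA box (5) and 9.07 without. These are descriptions over genes, which are not replicates.

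CpG content was higher in the members with a region, with overlap. The ratio of observed to expected CpG in the window had a median of 0.855 (range 0.482 to 1.23) in the 68 members with a region and 0.586 (range 0.115 to 1.05) in the 14 without. It was 0.801 in coding genes with a region and 0.384 in all promoters. Among the 4 tissue-specific isoforms with an entry it was 0.115 for Cox8b, 0.333 for Cox7a1, 0.432 for Cox6b2 and 0.564 for Cox7b2, the last of which was inside the range of the members with a region. Among their partners, Cox7b, without a region, was at 0.368 and Ndufa4 at 0.668, and Cox6a1, Cox7a2, Cox8a and Cox6b1 were between 0.807 and 1.08.

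Other genes of the pathway were taken from lists of respiratory genes outside the symbol rule, mainly assembly factors, and of regulators of mitochondrial biogenesis. In the first, 32 of 40 genes (80%) had a region at the start, with a median fold of 9.71, beside 38.3% and 8.41 for all coding genes. The highest were the complex I assembly factors Tmem126b (19.3) and Foxred1 (18.7). The somatic cytochrome c gene Cycs had a fold of 14.6, the testis gene Cyct had no region, and Cyc1, which encodes cytochrome c1, had a fold of 6.96.

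Of 18 regulators 14 (77.8%) had a region, with a median fold of 9.39, again beside 38.3% and 8.41 for all coding genes. The mitochondrial RNA methyltransferase gene Tfb1m had the highest, 22.6, followed by Creb1 at 13.0. Nrf1 had a fold of 7.89, Gabpa of 11.7, Yy1 of 12.2 and Tfam, which packages mitochondrial DNA, of 9.25. No region lay at the outermost ends of Gabpb1, Polg, Ppargc1a and Ppargc1b, although Polg and the coactivator gene Ppargc1a had one at a listed start.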

How the data were processed

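The authors ran the ENCODE ATAC-seq pipeline on paired-end reads, from alignment to peaks. Per the labels, the processing notes name GRCm39 and HOMER, and pipeline version and filters are not given in the sources used here. The deposited list gives, for each summit, an IDR score, a fold (ratio of signal over local background) and the −log10 of p and q, with no value per sample. Its 69545 lines were joined by coordinates into 32011 regions that kept the strongest summit. The list was read as GRCm38, since a region lay within 1 kb of 40.8% of 19666 protein-coding 5′ ends in GRCm38.p6 and of 5.2% in GRCm39, and of 3.77% of 21468 GRCm38.p6 ends shifted by 50 kb. Gene positions came from RefSeq. Strand came from the RefSeq promoter table for 17492 genes and by name from GENCODE release 39 for 3976. Where both gave one, 104 of 15832 differed.

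Shares and medians were computed in Python 3.11.15 with pandas 2.3.3 and numpy 2.4.6, with functions tested on simulated data. Members and lists were chosen with earlier results of these data known, so no test was run. Genes named were all isoform pairs, the highest and lowest fold of each complex, structural subunits without a region, members next to the 1 kb limit and those with most other regions, with further members named by role after their values were seen. The values of 1 member are not reported here. Alternatives changed the distance, the region threshold, the summit and the start used.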

Additional observations from a re-analysis of the deposited data

How the results depend on the processing

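The count of 75 members with a region at the outermost end was between 54 and 78 under all alternatives tried on the 99 members. Of the 84 structural subunits, tissue-specific isoforms included, 63 (75%) had one. The count over all 99 members was 72 within 500 bp and 76 within 2 kb. It was 59 (59.6%, beside 25.9% of all coding genes) with the 50% of regions of lowest q and 54 (54.5%, beside 24%) with regions at the IDR score ceiling of 1000. The tissue-specific isoforms were at 0 of 8 also within 2 kb, by overlap and at either end of the gene, and stricter settings could give no other count. The ubiquitous partners fell to 2 of 7 (28.6%, beside 24% of all coding genes) when only regions with an IDR score of 1000 were kept, since Cox4i1, Cox6a1 and Cox6b1 scored below it. The median fold of members was 7.66 when each region took the median over its summits in place of the strongest, and 6.54 for all genes. Listed starts were chosen after seeing the data. The 86 members with another region within 50 kb became 70 within 20 kb (70.7%, beside 59.3% of all coding genes), 95 within 100 kb (96.0%, beside 83.3%), 71 without regions at other 5′ ends (71.7%, beside 64.8%) and 63 with the regions of lowest q (63.6%, beside 61.3%), where members and all genes lay close together. No paired analysis was possible because the list pools the samples, and for the same reason no sample could be left out and counting error could not be given.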
